A study of Mus musculus with 18 samples.

Results

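Glucose enters a muscle cell through transporters of the Slc2a family, is trapped by hexokinase and is split by glycolysis into pyruvate, which is turned into lactate or oxidised. Spare glucose is stored as glycogen. Many of the same enzymes are targets of hypoxia-inducible factor (HIF), a transcription factor whose alpha subunit is marked for destruction by prolyl hydroxylases while oxygen is present, and glucocorticoids are known to alter glucose handling in muscle. Here 36 mouse genes of these pathways were followed: 3 glucose transporters, 19 enzymes from hexokinase to pyruvate kinase (3 of them the enzymes that set fructose-2,6-bisphosphate), 4 lactate dehydrogenase and lactate transporter genes, 3 glycogen enzymes and 7 hypoxia genes. They were taken by symbol from a table of 48795 Ensembl gene IDs. Each symbol matched 1 ID, and all 36 passed the filter on low counts that 15436 genes passed.

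The cells were C2C12 myotubes, muscle fibres formed in culture by fusion of an established mouse myoblast line, after 5 days in 2% horse serum. There were 6 groups of 3 libraries. Controls had 0.1% DMSO for 36 h, and 2 groups had ginsenoside Rc, a ginseng saponin, at 10 µM or 20 µM over the same 36 h. A further 3 groups received 200 µM dexamethasone, a synthetic glucocorticoid, for 24 h, preceded by 12 h in 0.1% DMSO, 10 µM ginsenoside Rc or 20 µM ginsenoside Rc. Whether the ginsenoside was still present in those last 24 h is not clear from the labels. The study asked how ginsenoside Rc influences the response to dexamethasone. All libraries come from 1 cell line, and separate cultures are not recorded, so p-values measure only how far these libraries spread, and that spread may be technical.

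Library totals were 32350889 to 45388609 expected counts. Myogenin (Myog, a muscle differentiation factor) stood at 691 ± 34.2 CPM (SD, n = 3) in controls, CPM being the count relative to the scaled library total, and muscle creatine kinase (Ckm) at 307 ± 18.4 CPM. All 5 glucocorticoid-response genes checked rose with dexamethasone, among them Fkbp5, from 23.8 to 428 CPM. Replicate 2 of the 20 µM ginsenoside group stood apart, with 2.79% of counts from mitochondrial genes against 1.26% to 1.91% in the other libraries. That share also differed with dexamethasone, at 1.26% to 1.38% in controls and 1.68% to 1.82% with dexamethasone alone, and its part in the results was not tested. Against the mean of its group's other libraries, the 36 genes in it differed by -0.92 to 0.74 on the log2 scale (median -0.05), with Pfkm at 365 CPM against 562 and 546 CPM.

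With dexamethasone some of these genes rose and others fell. Among genes that passed, the largest rises were in Slc2a4 (the GLUT4 transporter), Pgam2, Hk2, Gbe1 and Pygm, and the largest falls in Car9, Ero1l, Pgam1, Slc2a3, P4ha1 and Vegfa. Against control, 19 of 36 genes passed the edgeR quasi-likelihood test at a Benjamini-Hochberg adjusted p under 0.05 (52.8%, beside 43.8% of all genes tested). Of these, 10 were higher (20.6% of all genes tested) and 9 lower (23.2% of all genes tested). The libraries of the 2 groups did not overlap for 30 of the 36 (59.3% of all genes tested did not overlap). The median log2 change was 0.04, beside -0.01 over all genes. By role, 1 of 3 glucose transporters rose and 1 fell. Of 6 genes from hexokinase to phosphofructokinase 1 rose, of 10 from aldolase to pyruvate kinase 3 rose and 2 fell, of 4 lactate genes 2 rose and 1 fell, of 3 glycogen enzymes 2 rose, and of 7 hypoxia genes 1 rose and 4 fell. Without scaling for library composition 19 also passed, split as 7 higher and 12 lower. That setting moves the median of the 36 to -0.03 and that of all genes to -0.07, and Slc16a1, Eno3 and Egln3 do not pass under it. All comparisons share 1 estimate of spread over the 18 libraries, so a library outside a comparison can alter its calls. Without replicate 2 of the 20 µM ginsenoside group 26 of the 36 passed, 13 higher and 13 lower, beside 8104 of all genes in place of 6755. With only the 2 groups fitted 27 passed, beside 7934 of all genes.

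**Figure D1:**
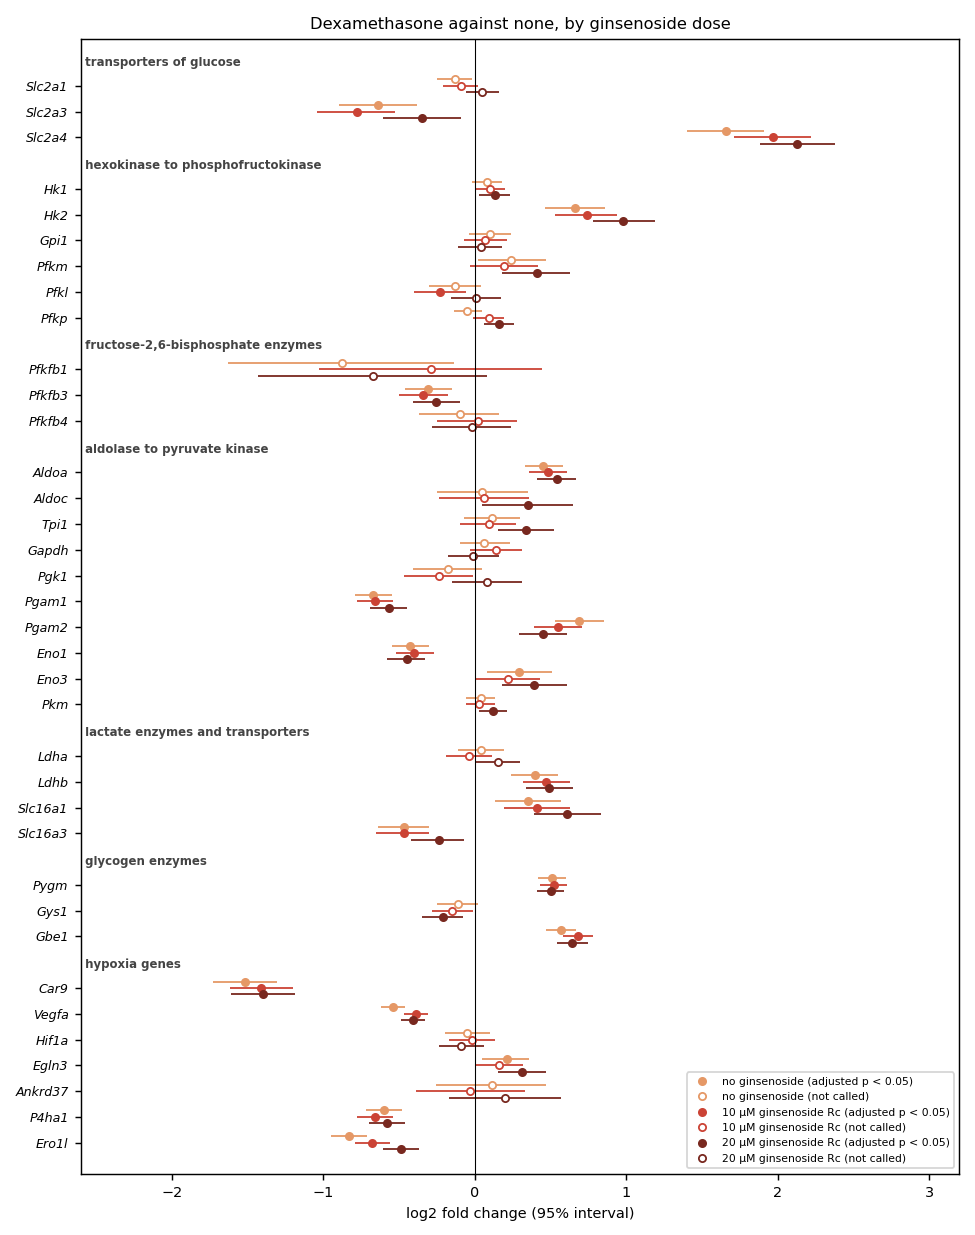
Log2 fold change with dexamethasone for the 36 genes (points, with 95% intervals from the edgeR fit), against control and at each ginsenoside dose. Slc2a4 stands farthest to the right (1.66 against control) and Car9 farthest to the left (-1.52 against control).

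HIF binds short core sequences, so the stretch around each start site (250 bases before to 50 after, RefSeq, GRCm38.p6) was searched for ACGTG on both strands. An entry was present for 34 of the 36 genes (Slc2a3 and Slc2a4 had none). ACGTG, which overlaps its own complement where the letters read CACGTG, was found for 22 of the 34 (64.7%), beside 21.8% of 27025 genes in the table and 28.6% of the 11168 tested genes with an entry. These 34 were chosen as glycolytic and hypoxia genes, so the share describes the choice. GCGTG was found for 61.8% of the 34 and 54.5% of tested genes, and AGAACA, a hexamer bound by the glucocorticoid receptor, for 23.5% and 15.3%. ACGTG was found for 5 of 9 genes that rose with dexamethasone, 7 of 8 that fell and 10 of 17 that did not pass. Over all tested genes with an entry, it was found for 30.4% of the 2448 that rose and 27.4% of the 2713 that fell. The median number of CG pairs per window was 16.5 for these genes and 19.0 for tested genes. The sites below are from the promoters of 4 genes that fell and 4 that rose, and show that the same letters stand in both. Each is on its gene's strand, 5′ to 3′, with the match in capitals (CACGT is ACGTG read from the other strand).
Car9 (fell), chr4:43506996-43507025, plus strand, match starting at -18: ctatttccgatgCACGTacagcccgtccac
Ero1l (fell), chr14:45318618-45318647, minus strand, match starting at -63: cgcgcgccgctgCACGTccgcaggggaggc
P4ha1 (fell), chr10:59323268-59323297, plus strand, match starting at -16: tgtgacagagcgCACGTagcgagggctgcg
Pgam1 (fell), chr19:41911745-41911774, plus strand, match starting at -114: cgctccttgcttACGTGcgctccgtgactg
Hk2 (rose), chr6:82774489-82774518, minus strand, match starting at -52: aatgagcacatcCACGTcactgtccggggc
Aldoa (rose), chr7:126799363-126799392, minus strand, match starting at -126: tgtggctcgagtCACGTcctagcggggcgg
Pygm (rose), chr19:6384335-6384364, plus strand, match starting at -61: ccaagaccctccCACGTccggggaggcgtg
Egln3 (rose), chr12:54204086-54204115, minus strand, match starting at -229: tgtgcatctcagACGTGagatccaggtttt
A match is a string of letters and does not show that a factor binds there.

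Slc2a4 (ENSMUSG00000018566, chr11:69942539-69948188, minus strand, GRCm38) encodes GLUT4, the insulin-responsive glucose transporter of muscle and fat. Its 3 control libraries held 3.84, 3.71 and 3.12 CPM, and its 3 dexamethasone libraries 11.6, 11.2 and 10.9 CPM. The groups were far apart, and the fold was 3.15 (log2 1.66 ± 0.12 SE, adjusted p = 2.5e-09). Slc2a1 encodes GLUT1, the basal transporter of most cultured cells. Its controls held 146, 156 and 156 CPM and its dexamethasone libraries 143, 134 and 142 CPM. The groups did not overlap but the difference did not pass, at a log2 change of -0.13 (95% interval -0.25 to -0.02, adjusted p = 0.052). Slc2a3, for the high-affinity transporter GLUT3, held 3.84, 4.04 and 4.56 CPM in controls and 2.76, 2.72 and 2.5 CPM with dexamethasone. It fell by 0.64 on the log2 scale (SE 0.12, adjusted p = 0.00031). Per kilobase of exon, GLUT1 was the main transporter transcript in every group. Slc2a4 made up 2.27% ± 0.306 of the summed level of these 3 genes in controls and 7.45% ± 0.285 with dexamethasone (SD, n = 3).

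Hexokinase commits glucose to the cell by phosphorylating it, and Hk2 is the isozyme of insulin-sensitive tissue. Hk2 held 111, 121 and 118 CPM in controls and 185, 195 and 174 CPM with dexamethasone. No library overlapped, and Hk2 rose 1.58-fold (log2 0.66 ± 0.10 SE, adjusted p = 1.8e-05). The ubiquitous Hk1 did not pass (log2 0.08, adjusted p = 0.19), and neither did Gpi1, the isomerase of the next step (0.10). Phosphofructokinase, the main control point of glycolysis, has muscle (Pfkm), liver (Pfkl) and platelet (Pfkp) forms. None passed, with log2 changes of 0.24 (adjusted p = 0.077), -0.13 and -0.05. Pfkm held 529.6, 545 and 513 CPM in controls and 628, 643 and 607 CPM with dexamethasone, without overlap. The 365 CPM of Pfkm in replicate 2 of the 20 µM ginsenoside group enters the shared estimate of spread. Pfkfb3 makes fructose-2,6-bisphosphate, the strongest activator of phosphofructokinase. It held 26.1, 31.0 and 28.6 CPM in controls and 22.2, 23.2 and 24.0 CPM with dexamethasone, all lower than any control. Pfkfb3 fell by 0.31 on the log2 scale (SE 0.08, adjusted p = 0.0028). Its relatives did not pass: Pfkfb4 at log2 -0.10, and Pfkfb1, with under 1 CPM in each library of both groups, at -0.88 (95% interval -1.63 to -0.14, adjusted p = 0.052).

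Further down the pathway, 2 steps had isozyme genes that changed in opposite directions. Phosphoglycerate mutase, which moves a phosphate within 3-phosphoglycerate, has a muscle form (Pgam2) and a widely expressed form (Pgam1). Pgam2 held 105, 115 and 101 CPM in controls and 168, 168 and 181 CPM with dexamethasone, whereas Pgam1 held 466, 480.0 and 465 CPM and then 299, 293 and 296 CPM. Neither gene's groups overlapped. Pgam2 rose 1.61-fold (log2 0.69 ± 0.08 SE, adjusted p = 6.4e-07) and Pgam1 fell by 0.67 on the log2 scale (SE 0.06, adjusted p = 2.2e-08). Enolase, which makes phosphoenolpyruvate, gave the same split: the muscle form Eno3 rose (log2 0.29, adjusted p = 0.026) and the widely expressed Eno1 fell (-0.43, adjusted p = 9.4e-06). The Eno3 call was lost without control replicate 1 or 3 or dexamethasone replicate 2 or 3, at adjusted p-values of 0.051 to 0.09. Over all the alternatives (edgeR settings and DESeq2) its adjusted p ran from 7.3e-06 to 0.12. Replicate 2 of the 20 µM ginsenoside group, which enters the shared estimate of spread, held 531 CPM of Eno3 against 795 and 768 CPM in the others of its group. Aldoa, the muscle aldolase, rose from 2831, 2739 and 2649 CPM to 3763, 3702 and 3776 CPM (log2 0.45, adjusted p = 5.7e-06). Aldoc (0.05), Tpi1 (0.11), Gapdh (0.06), Pgk1 (-0.18) and Pkm (0.04) did not pass, although the groups did not overlap for Tpi1, Pgk1 and Pkm. Eno1, Pgk1, Pgam1 and Gapdh have near-identical copies or pseudogenes among which the authors' software divides reads, so they are less certain. With the counts of Eno1b, Pgk1-rs7 and Pgam1-ps2 added to their parent genes, 19 genes passed, as before.

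Lactate dehydrogenase and the monocarboxylate transporters handle lactate. Ldha, the main muscle subunit and a known HIF target, held 1008, 1027 and 1000.2 CPM in controls and 1014, 1064 and 1035 CPM with dexamethasone, with overlapping groups. Its log2 change was 0.04 (95% interval -0.11 to 0.19, adjusted p = 0.72). Ldhb, the heart-type subunit, rose (log2 0.40, adjusted p = 0.00023). Slc16a1, the transporter MCT1, rose from 55.2 to 70.3 CPM (log2 0.35, adjusted p = 0.011), and Slc16a3, the lactate exporter MCT4, fell from 93 to 67.2 CPM (-0.47, adjusted p = 0.00014).

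Of the 3 glycogen enzymes, those of breakdown and branching rose. Pygm, muscle glycogen phosphorylase, held 322, 330.3 and 323 CPM in controls and 449, 469 and 470.4 CPM with dexamethasone. It rose 1.42-fold (log2 0.51 ± 0.04 SE, adjusted p = 1.7e-08). Gbe1, the branching enzyme, held 18.8, 20.2 and 19.8 CPM in controls and 28.7, 29.2 and 29.6 CPM with dexamethasone. It rose 1.49-fold (log2 0.57 ± 0.05 SE, adjusted p = 1.8e-08), with no overlap for either gene. Gys1, muscle glycogen synthase, did not pass (log2 -0.11, adjusted p = 0.17).

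Of the 7 hypoxia genes, Car9, Ero1l, P4ha1 and Vegfa fell, Egln3 rose, and Hif1a and Ankrd37 did not pass. Hif1a held 143, 148 and 159 CPM in controls and 143, 145 and 148 CPM with dexamethasone (log2 -0.05, 95% interval -0.20 to 0.10, adjusted p = 0.62). This is a transcript level, and HIF activity is set largely at the protein level, which was not measured. Car9, a cell-surface carbonic anhydrase widely used as a hypoxia marker, held 57.6, 61.2 and 57.9 CPM in controls and 20.1, 21.6 and 19.9 CPM with dexamethasone. All dexamethasone libraries were far below all controls, at 0.349 of the control level (log2 -1.52 ± 0.10 SE, adjusted p = 8.7e-10). Ero1l, an oxidase that forms disulfide bonds in the endoplasmic reticulum, held 76.8, 84.1 and 83.5 CPM in controls and 48.1, 44.1 and 45.1 CPM with dexamethasone. Ero1l fell by 0.83 on the log2 scale (SE 0.06, adjusted p = 1.1e-09).

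P4ha1, a collagen prolyl hydroxylase subunit, held 442, 478 and 476 CPM in controls and 297, 311 and 313 CPM with dexamethasone (log2 -0.60 ± 0.06 SE, adjusted p = 9.8e-08). Vegfa, an angiogenic growth factor, held 169, 178 and 175 CPM and then 122, 119 and 119 CPM (log2 -0.54 ± 0.04 SE, adjusted p = 1.8e-09). Neither gene's groups overlapped. Egln3, a prolyl hydroxylase that marks HIF alpha subunits and is itself a HIF target, went the other way: 294, 294 and 289 CPM in controls and 380.4, 300.3 and 331 CPM with dexamethasone (log2 0.21, adjusted p = 0.033). This call rested partly on the highest library: without dexamethasone replicate 1 the change was 0.11 (adjusted p = 0.24), and it was also lost without dexamethasone replicate 3 or any 1 control (adjusted p = 0.052 to 0.073). Ankrd37, another hypoxia-induced gene, did not pass (log2 0.11, adjusted p = 0.66).

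**Figure D2:**
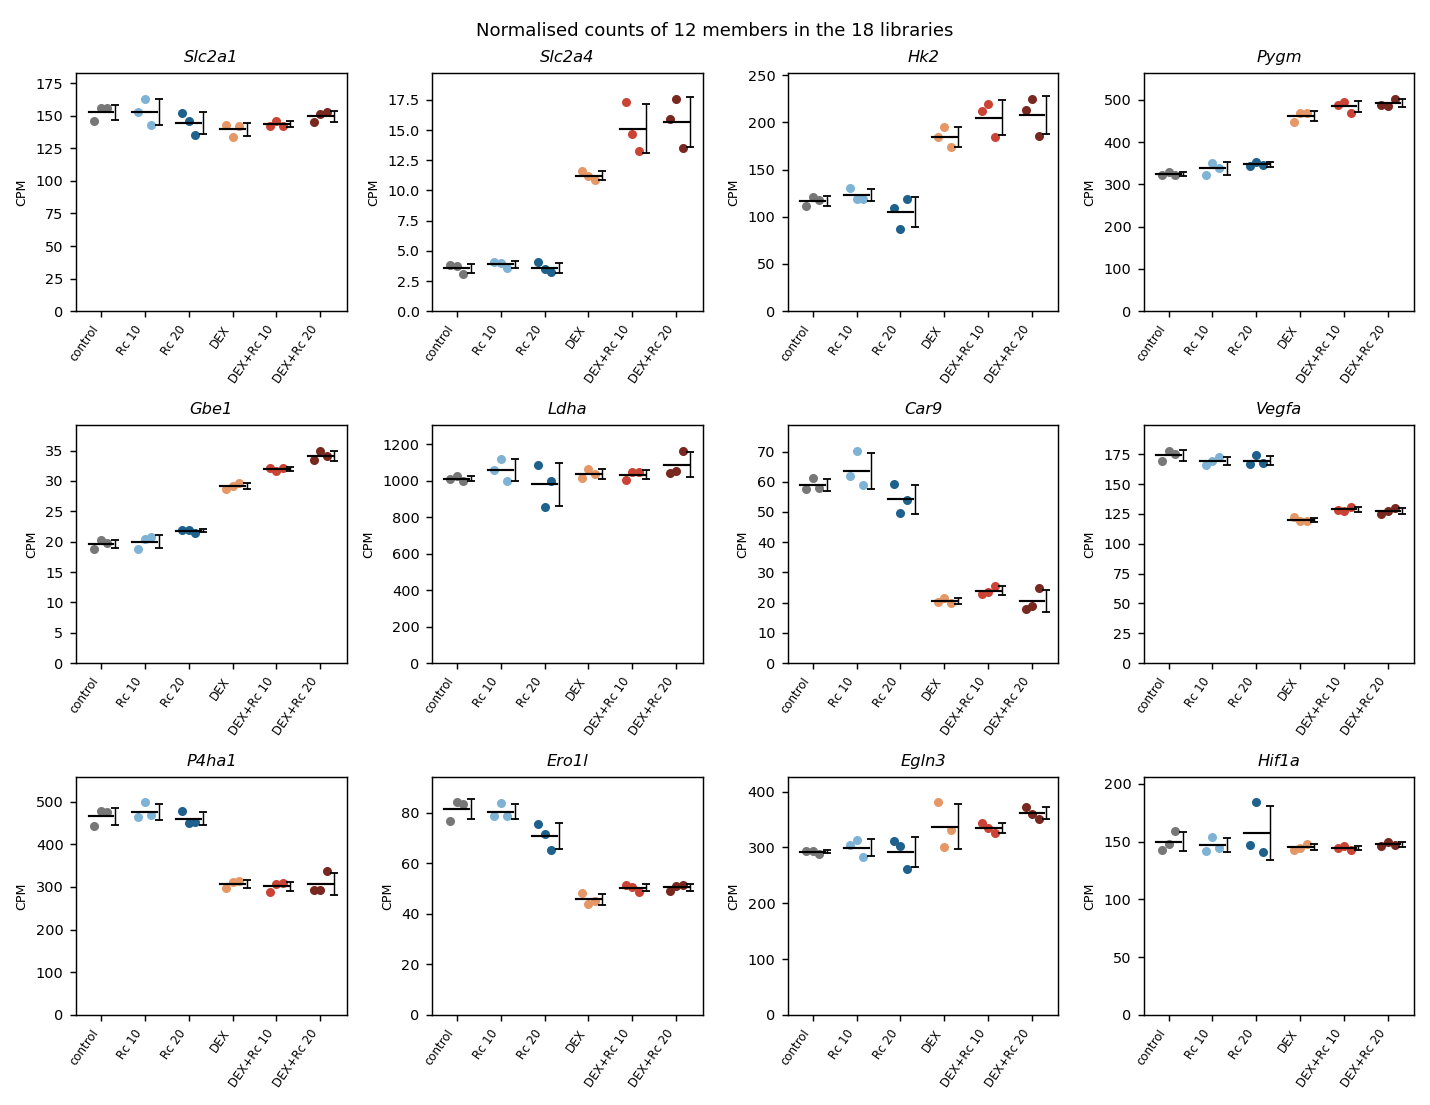
TMM-scaled CPM of selected genes in each of the 18 libraries, by group; each point is 1 library, horizontal lines are group means, brackets are the SD and axes start at 0 (Rc 10 and Rc 20, ginsenoside Rc in µM; DEX, dexamethasone). Slc2a4, Hk2, Pygm and Gbe1 are higher, and Car9, Vegfa, P4ha1 and Ero1l lower, in each of the 9 dexamethasone libraries than in each of the 9 others.

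Markers of other cell states moved in the same comparison, in which 20.6% of all genes tested were higher and 23.2% lower. The summed level of 13 myotube markers was 24340 to 25460.1 CPM in controls and 27562 to 29332 CPM with dexamethasone, with 10 of 13 higher and 1 lower. The 9 markers of proliferating myoblasts summed to 446 to 455 CPM and then 301 to 318 CPM, with 7 lower and 1 higher. Myod1, at 196 and then 209 CPM, was a large part of both sums. The median log2 change of the 9 was -2.65, with Mki67 going from 52.1 to 4.89 CPM. The 8 fibroblast markers summed to 6989 to 7512 CPM and then 3548 to 4149 CPM (5 of 7 tested were lower and 2 higher). The 8 adipocyte markers summed to 16.3 to 18 CPM and then 73.5 to 79.5 CPM, with Plin1, Lep, Cidec and Retn at 0 in both groups. Most of both sums was Cebpa, at 13.2 and then 66.8 CPM. Only 3 of the 8 could be tested, and all 3 were higher with dexamethasone. The other 2 were Fabp4, at 0.00736 and then 3.68 CPM, and Pparg, at 3.82 and then 6.27 CPM. Adipoq held 0.00845 and then 0.024 CPM. The part of these shifts in the results was not tested. In bulk RNA, fewer cells of a type and less RNA per cell cannot be told apart.

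Because genes are comparable only per length, isozymes were set side by side as shares of CPM per kilobase of exon. In controls the highest of the 36 were Gapdh (1081 ± 17.6 CPM per kilobase, SD, n = 3) and Aldoa (941 ± 31.3), followed by Pkm (532 ± 4.75). Pgk1 (456 ± 26.9) and Eno3 (445 ± 13.7) came next at this length and did not differ beyond their spread. With the longest transcript as length, Aldoa (1769) stood above Gapdh (1359), and Eno1 (595), Pgk1 (561) and Ldha (557) above Eno3 (494), so the order depends on the length used. In each of 9 families the share of 1 member was followed (Slc2a4, Hk2, Pfkm, Pfkfb3, Aldoa, Pgam2, Eno3, Ldha and Slc16a1). It differed without overlap between control and dexamethasone libraries in 8, being higher in 7. Where a family has 1 other member, that member's share moves the opposite way, so the direction follows from the member chosen. The levels of 59.3% of all genes tested did not overlap in this comparison, and no such figure was made for shares. Pgam2 went from 34.9% ± 1.03 to 57.8% ± 1.08 of the mutase family, passing Pgam1. Slc16a1 went from 41.6% ± 1.45 to 55.7% ± 0.662 of Slc16a1 and Slc16a3 together. Hk2 went from 42.8% ± 0.986 to 52.7% ± 1.76 of Hk1 and Hk2, and Eno3 from 66.5% ± 0.62 to 76.5% ± 0.902 of Eno1 and Eno3. Family members outside the 36, such as Eno2 (59.9 CPM in controls) and Pfkfb2 (9.01 CPM in controls), were not in these sums. With the longest transcript Hk2 was the smaller share in both groups, at 28.9% and 37.7%, and Eno3 the smaller share in controls, at 45.4%, and the larger with dexamethasone, at 57.8%. Pfkm went from 82.2% to 85.6%, and Ldha from 96.7% to 95.8%. Aldoa was at 99.9% in both and is counted among the 8. Its separation was minute, with Aldoc at 0.133% in both control replicate 3 and dexamethasone replicate 1 at the digits kept. The Pfkfb3 share overlapped. A share can move through either gene, and no test was made of shares.

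**Figure D3:**
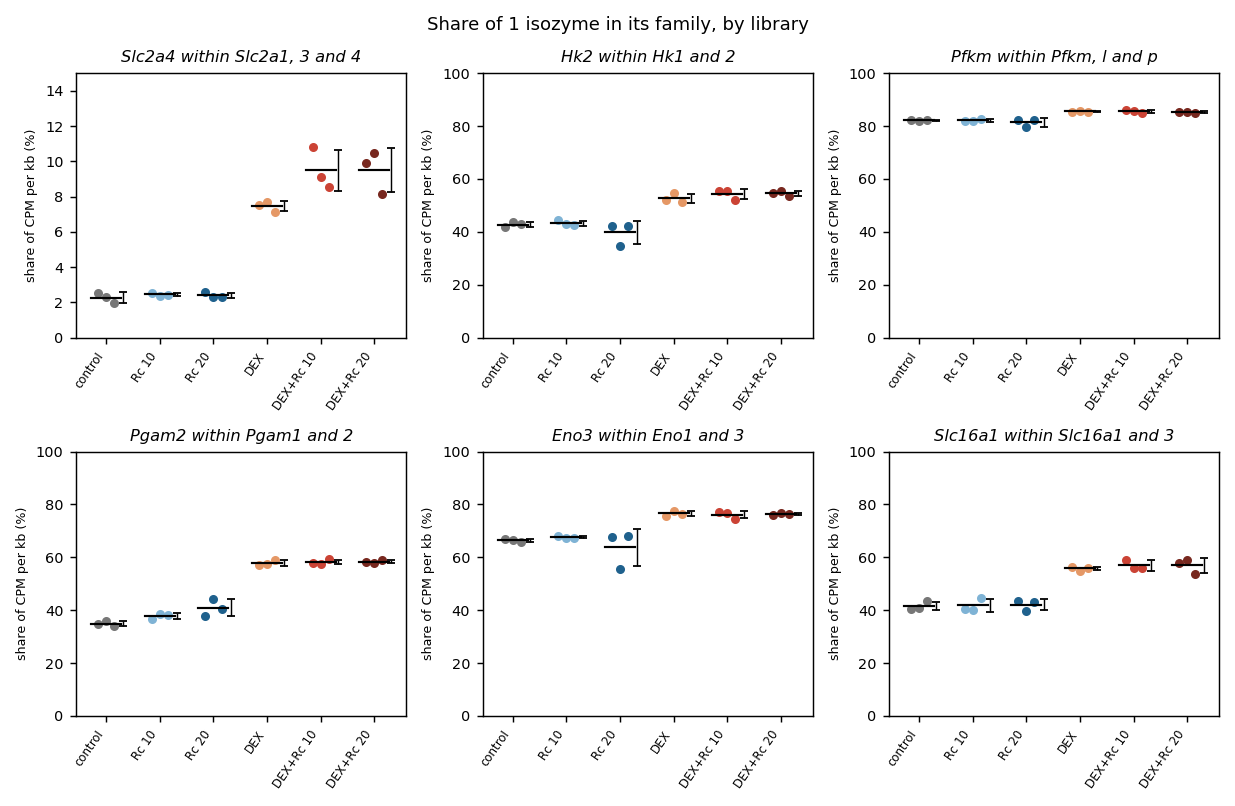
Share of each family's summed CPM per kilobase held by the named isozyme in each library (points) of the 6 groups, in percent, with means (lines) and SD (brackets); the Slc2a4 axis ends lower than the others. Pgam2 lies at 34.9% in controls and 57.8% with dexamethasone, and the 3 dexamethasone groups lie together.

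The dexamethasone response was measured again at each ginsenoside dose, in libraries that share none with the comparison above. The estimate of spread is shared by all these comparisons, so their calls are not fully separate. At 10 µM, 18 of 36 genes passed, 8 higher and 10 lower (50%, beside 44.2% of all genes, or 21.1% higher and 23% lower), and the groups did not overlap for 26 (59.7% of all genes). At 20 µM, 26 passed, 16 higher and 10 lower (72.2%, beside 48.9% of all genes, or 23.5% higher and 25.4% lower), and the groups did not overlap for 22 (50.1% of all genes). Without replicate 2 of the 20 µM group 26 also passed, beside 7964 of all genes in place of 7555. When only the 20 µM groups were fitted, 16 passed, beside 5103 of all genes. Across the 3 comparisons 8 genes rose and 9 fell in each (47.2% of the 36, beside 35% of all genes). Slc2a4 changed by log2 1.97 at 10 µM and 2.13 at 20 µM, Hk2 by 0.74 and 0.98, Car9 by -1.41 and -1.40, and Ero1l by -0.68 and -0.49. Another 9 genes passed in none, among them Slc2a1, Ldha, Hif1a and Gapdh. All 9 dexamethasone libraries lay above all 9 others for 11 genes and below them for 7 (50% of the 36, beside 32.6% of all genes). In the 20 µM comparison Aldoc, Hk1, Pfkm, Pfkp, Pkm and Tpi1 also rose and Gys1 fell, which passed in neither other comparison, and Pfkl fell in the 10 µM comparison (-0.23). The changes at 20 µM ranged from log2 -0.21 (Gys1) to 0.41 (Pfkm). The level of Pfkm there includes the low value of replicate 2, and without it the change was 0.24 (adjusted p = 0.00031). Aldoc did not pass without that library (adjusted p = 0.059). Leaving out 1 library also ended the 20 µM calls of Slc2a3, Slc16a3, Hk1, Pkm and Gys1, and the 10 µM call of Pfkl, in at least 1 case each.

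Ginsenoside Rc alone gave no call among these genes. Against control, 0 of 36 passed at 10 µM (edgeR; 0 at an unadjusted p under 0.05, 0 by DESeq2; 0.00648% of all genes passed) and 0 at 20 µM (5 at an unadjusted p under 0.05, 0 by DESeq2; 0.104% of all genes passed). The log2 changes lay between -0.25 and 0.17 at 10 µM and between -0.31 and 0.26 at 20 µM, with medians of 0.05 and -0.05 (0 and -0.01 over all genes). Libraries did not overlap for 3 genes at 10 µM (12.1% of all genes) and 6 at 20 µM (11.7% of all genes). The smallest p-values at 10 µM belonged to Pgam2 (log2 0.15, adjusted p = 1), Slc2a3 (0.17) and Pfkl (0.11). At 20 µM they belonged to Ero1l, Pgam2 and Gbe1. Ero1l held 75.6, 71.8 and 65.3 CPM, all below the controls (log2 -0.20 ± 0.06 SE, adjusted p = 0.22). Pgam2 differed by 0.26 (adjusted p = 0.27) and Gbe1 by 0.16 (adjusted p = 0.32). Without replicate 2 the values were -0.21 for Ero1l and 0.19 for Pgam2, and 0 genes passed. Without replicate 1 of the 20 µM group 13 genes, in place of 5, had an unadjusted p under 0.05, and again 0 passed. The calls over all genes at 20 µM, 16 in number, were 107 with DESeq2, 0 with only the groups compared, and 5 (without control replicate 1) to 44 (without replicate 2 of the 20 µM group) when 1 library was left out. Both doses share the control libraries.

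Within dexamethasone, ginsenoside gave 1 call. At 20 µM Gbe1 held 33.4, 35.0 and 34.1 CPM, above the 28.7 to 29.6 CPM of dexamethasone alone. It was 1.17-fold higher (log2 0.23 ± 0.05 SE, adjusted p = 0.04), and it was the 1 of 36 genes that passed (2.78%, beside 0.369% of all genes, and 0.117% in the higher direction). Libraries did not overlap for 11 genes (14.9% of all genes). The call depended on the setting. Its adjusted p was 0.059 without scaling for library composition, 0.11 without the filter on low counts, 0.056 with only those groups fitted, and up to 0.25 when 1 library was left out. It was 0.0024 with DESeq2. Gbe1 had risen with dexamethasone alone, and these libraries lay farther still from the 18.8 to 20.2 CPM of control. Slc2a4 had the next smallest p. It held 15.9, 17.6 and 13.5 CPM at 20 µM against 11.6, 11.2 and 10.9 CPM without ginsenoside, with no overlap (log2 0.49, 95% interval 0.26 to 0.71, adjusted p = 0.057). Slc2a4 passed with DESeq2 (adjusted p = 0.0076) and without the filter on low counts (adjusted p = 0.014). Pfkp followed (log2 0.13, adjusted p = 0.36).

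At 10 µM with dexamethasone 0 of 36 genes passed (edgeR; 7 at an unadjusted p under 0.05, 0 by DESeq2; 0.0259% of all genes passed), and libraries did not overlap for 8 (10.8% of all genes). The 7 became 4 without replicate 2 or 3 of dexamethasone alone or replicate 1 of the combined group. Slc2a4 held 17.3, 14.7 and 13.3 CPM there, again above all 3 libraries of dexamethasone alone (log2 0.43 ± 0.11 SE, 95% interval 0.20 to 0.65, adjusted p = 0.57). Gbe1 (0.13) and Vegfa (0.10) followed, each at an adjusted p of 1. Both doses share the dexamethasone libraries, so the 2 values of Slc2a4 are not independent. The medians over the 36 genes were 0.04 at 10 µM and 0.07 at 20 µM, beside 0 over all genes at each dose. Car9 differed from dexamethasone alone by 0.22 at 10 µM and 0.00 at 20 µM, and Hk2 by 0.15 and 0.17. None of these passed.

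**Figure D4:**
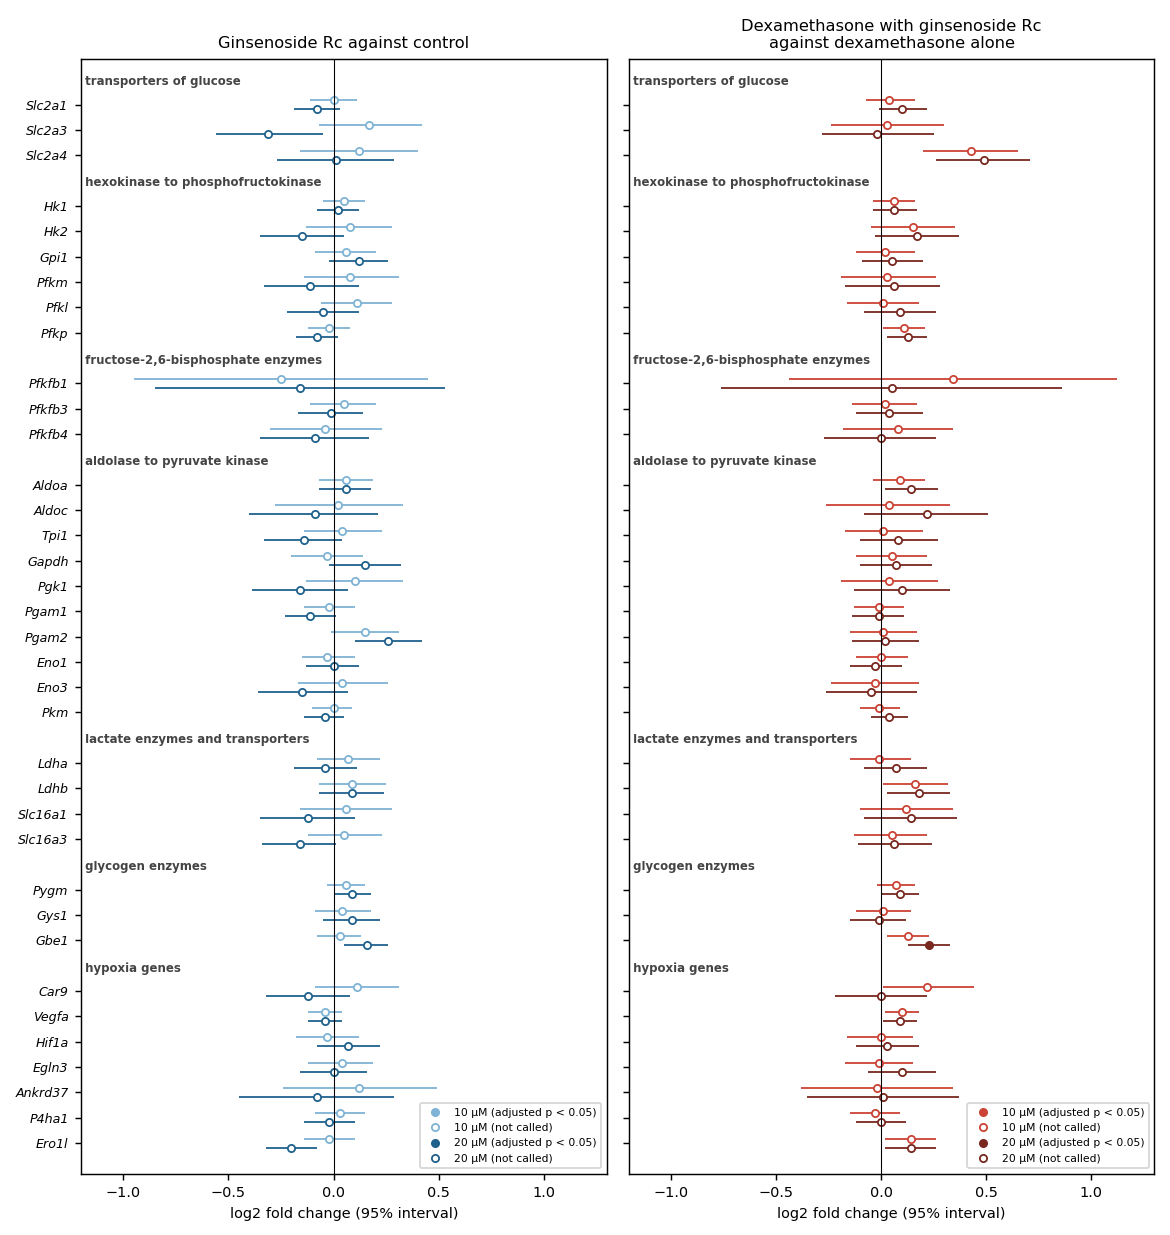
Log2 fold change with 95% intervals for the 36 genes with ginsenoside Rc at 10 µM and 20 µM, against control and against dexamethasone alone. Most intervals cross 0, and the 1 call is Gbe1 at 20 µM with dexamethasone (0.23).

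Whether ginsenoside altered the dexamethasone response was tested as an interaction. No gene of the 36 passed at 10 µM (edgeR; 1 at an unadjusted p under 0.05, 0 by DESeq2; 0% of all genes passed) or at 20 µM (7 at an unadjusted p under 0.05, 0 by DESeq2; 0% of all genes passed). At 20 µM the 7 became 12 without replicate 1 of the 20 µM group, and 4 without control replicate 2 or 3 or dexamethasone replicate 3. At 10 µM the 1 became up to 3 when 1 library was left out. The smallest p-values at 20 µM belonged to Ero1l (log2 0.34 ± 0.08 SE, adjusted p = 0.61), Pfkp (0.21, adjusted p = 0.88) and Slc2a4 (0.47, 95% interval 0.11 to 0.83, adjusted p = 0.88). For Ero1l this is a smaller fall with dexamethasone at 20 µM, and it includes the lower level of Ero1l with 20 µM alone. At 10 µM they belonged to Vegfa (0.14), Pfkp (0.13) and Ero1l (0.16), each at an adjusted p of 1.

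The other genes of these pathways were counted from lists of their own. Beside each count, 20.6% of all genes tested rose and 23.2% fell in dexamethasone against control. In dexamethasone against control, 5 of 8 further glucose transport genes rose and 2 fell (median 0.15). Tbc1d4, the Rab regulator that holds GLUT4 vesicles back until insulin acts, rose from 5.26 to 17.9 CPM (log2 1.77, adjusted p = 8.8e-10). The transporter gene Slc2a10 fell (log2 -1.08) and Slc2a13, a myo-inositol transporter, rose (0.60). Of 20 tested genes of pyruvate handling and the remaining glycolytic enzymes, 8 rose and 2 fell (median 0.15). Pdk4, a kinase that shuts pyruvate dehydrogenase, rose from 21 to 154 CPM (log2 2.87, adjusted p = 7.6e-12). Its relative Pdk3 fell (log2 -0.55), and Pdha1, the subunit it acts on, rose (0.47).

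Of 19 tested glycogen genes outside the 36, 11 rose and 2 fell (median 0.28), beside 20.6% and 23.2% of all genes tested. Phka2, a phosphorylase kinase subunit, rose from 44.7 to 78.3 CPM (log2 0.81), and Ppp1r3a, which targets a phosphatase to muscle glycogen, from 10.5 to 29.6 CPM (1.5). Of 11 tested gluconeogenesis and pentose phosphate genes, 2 rose and 3 fell (median -0.11). Pcx, pyruvate carboxylase, rose (log2 1.15), while Pck2, the mitochondrial phosphoenolpyruvate carboxykinase, and Tkt, transketolase, fell by 1.26 and 0.60. Of 26 further HIF pathway and hypoxia genes, 10 rose and 7 fell (median 0.06). Ddit4, an inhibitor of mTORC1 induced by both hypoxia and glucocorticoids, rose (log2 1.23). Car12, a carbonic anhydrase related to Car9, fell by 1.71 and Angptl4, a lipoprotein lipase inhibitor, by 0.71. No gene of these 5 lists passed in any of the 4 comparisons of ginsenoside with no ginsenoside.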

How the data were processed

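Per the labels' protocols, poly-A RNA of 18 libraries was prepared with a strand-directional kit and read as pairs of 100 bp. Tools recorded in the submitters' processing notes are RSEM 1.3.3, STAR 2.7.3a, Trim Galore 0.6.5 and FastQC 0.11.9, with build GRCm38 (mm10). Annotation release and strand setting: not given in the sources used here. The authors deposited expected counts, which RSEM estimates per gene by dividing shared reads, and 9.27% of values were not whole. GENCODE mouse release 21 named 48435 of 48795 IDs, and the other 360 held 0.0185% of counts.

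Expected counts were rounded, filtered with filterByExpr (15436 of 26796 genes with any count kept) and scaled by TMM (factors 0.971 to 1.03). The model (edgeR 4.0.16, R 4.3.3, robust quasi-likelihood) had a mean for each group over all 18 libraries, with Benjamini-Hochberg adjustment over all genes tested at 0.05. The SE is the absolute log2 change over the root of the F statistic. CPM carry the SD over 3 libraries. The script was tested on simulated counts. Alternatives were DESeq2 1.42.0, median-ratio size factors, unscaled library totals, no filter, only the compared groups, a replicate block, each library left out, and replicate 2 of 20 µM left out. Summing near-identical copies was added after seeing the data.

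The 36 genes and the lists were chosen with earlier results of these data known. Values in every library are given for genes that passed against control with an absolute log2 change of at least 0.5, genes that passed with ginsenoside, and Slc2a1, Slc2a4, Hk2, Pfkfb3, Ldha, Vegfa, Hif1a and Car9. The 3 smallest p-values are named where a ginsenoside comparison called none, and the 3 smallest adjusted p-values of each further list, where the average log2 CPM reached 1. Pfkp and Slc2a4 in the 20 µM comparison with dexamethasone, and Egln3, Aldoa, Pfkm and Eno3 values, were chosen after their values were seen. A gene that this rule takes from a further list is not reported here.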

Additional observations from a re-analysis of the deposited data

How the results depend on the processing

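No gene that passed reversed direction under the alternatives run. Ginsenoside at 20 µM with dexamethasone against dexamethasone alone gave 1 gene, Gbe1; 0 without composition scaling; 2 with DESeq2 and 2 with the replicate block (Gbe1 and Slc2a4 each time); and 0 to 2 when 1 library was left out (2 without replicate 2 of ginsenoside at 20 µM, and 2 without replicate 3 of 20 µM plus dexamethasone). Without the low-count filter, or with only the groups compared, the 1 gene was Slc2a4 in place of Gbe1. Over all genes that comparison gave 57 calls, 258 with DESeq2 and 6 to 341 when 1 library was left out. Dexamethasone at 20 µM gave 26 genes, 16 with only the groups compared (9 higher, 7 lower) and 20 to 26 when 1 library was left out. Over all genes the calls there were 7555, 5103 with only the groups compared and 6536 to 7964 when 1 library was left out. The cause was not tested. Dexamethasone against control gave 19 genes, 27 with only the groups compared and 17 to 26 when 1 library was left out (26 without replicate 2 of the 20 µM group). Its calls over all genes were 6755, 7934 with only the groups compared and 5834 to 8104 when 1 library was left out. In that comparison 130 of 133 gene calls held over the alternatives other than leaving out 1 library. Over those that left 1 out, replicate 2 of the 20 µM group among them, 124 of 133 held. Replicate numbers did not pair the libraries: over 45 same-numbered pairs the correlation of deviations ran from -0.196 to 0.15, and 5 of 18 libraries correlated best with their own number. The replicate block changed no other count of genes that passed among the 36. Some counts at an unadjusted p under 0.05 did change with it, as from 1 to 2 for the interaction at 10 µM (edgeR). Isozyme shares separated in 8 of 9 families, 8 with the longest transcript and 8 to 9 when 1 library was left out. Pfkfb1 rests on the fewest counts of the 36, 10 to 21 per library with dexamethasone alone.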

Other observations

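The HIF alpha subunit genes differed among themselves with dexamethasone (chosen after their values were seen). Epas1, which encodes HIF-2 alpha, rose from 1.52 ± 0.0871 to 4.61 ± 0.122 CPM (SD, n = 3, log2 1.59, adjusted p = 9.9e-07 by edgeR). It was also higher with dexamethasone than without it at 10 µM ginsenoside (log2 1.94) and at 20 µM (log2 2.24). Ginsenoside alone differed from control by log2 0.11 at 10 µM and 0.04 at 20 µM, and neither passed. With dexamethasone and 20 µM ginsenoside Epas1 stood at 7.39 ± 1.93 CPM, log2 0.69 above dexamethasone alone (adjusted p = 0.068). At 10 µM that difference was 0.45 and did not pass. The interaction at 20 µM was 0.64 (adjusted p = 0.88 by edgeR). Hif3a, whose product can act as an inhibitor of the other subunits, held 0, 1 and 0 counts in the 3 control libraries and 64, 78 and 65 counts in the 3 dexamethasone libraries. In the 9 libraries without dexamethasone no more than 3 counts of Hif3a were seen in any. The partner subunit gene Arnt rose from 87.9 to 98.8 CPM (log2 0.17, adjusted p = 0.015), and Vhl, which encodes the ubiquitin ligase subunit that removes HIF alpha, did not pass (log2 -0.02, 95% interval -0.20 to 0.16, adjusted p = 0.90).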
